A study of Mus musculus with 6 samples.

Results

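Levels of 9 lysosomal genes were followed in every named cell class of at least 50 cells in a mouse brain single-cell RNA sequencing (scRNA-seq) study. The aim was to separate those found in most brain cells from those restricted to microglia and other phagocytes. The 9 genes were the cathepsins Ctsb, Ctsl, Ctss, Ctsz and Ctsd, the cathepsin inhibitor Cst3, the enzyme subunit Hexa and the membrane glycoproteins Lamp1 and Cd68. They were taken by gene symbol from the 31053 genes listed for the cortex and the 27998 listed for the hippocampus. Each had the same gene identifier in both lists. The choice of the genes was made with earlier results of these data known. Cerebral cortices came from female wild-type C57Bl/6J mice aged 3 weeks and hippocampi from female mice of the same strain aged 5 weeks, all perfused before dissection. In each preparation the cells of 3 mice were pooled into 1 suspension, cleared of myelin on Percoll without any sorting, and run as 3 technical replicate libraries. Each region is therefore 1 biological sample, no test was made, and the SDs below describe the spread between technical libraries only. Region, age and preparation changed together and cannot be told apart.

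Lysosomes break down proteins, lipids and sugars in an acidic lumen. Cathepsins are their proteases: cathepsins B, L, S and Z (Ctsb, Ctsl, Ctss, Ctsz) use a cysteine in the active site, and cathepsin D (Ctsd) uses aspartate. Cystatin C (Cst3) is a secreted inhibitor of cysteine cathepsins, Hexa encodes the alpha subunit of beta-hexosaminidase, which degrades gangliosides, and Lamp1 and Cd68 are heavily glycosylated proteins of the lysosomal membrane. Lamp1 is used as a general marker of lysosomes and Cd68 as a marker of macrophages and microglia, the resident phagocytes of the brain. Many lysosomal genes carry an E-box motif read by the transcription factor TFEB, whereas many genes of the myeloid lineage are bound by the ETS factor PU.1.

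The promoters of 8 of the 9 genes, as 250 bases before to 50 bases after the RefSeq start on GRCm38, were searched for these motifs on both strands. Those with a match in this window are shown, with the E-box of Lamp1, Ctsd and Ctsl beside the ETS-type match of Ctss and Cd68. Capitals mark the motif, and sequences are given 5′ to 3′ on the strand of the gene.
Lamp1, chr8:13159088-13159160 (+ strand): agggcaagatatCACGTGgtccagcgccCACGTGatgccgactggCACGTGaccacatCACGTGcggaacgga
Ctsd, chr7:142387908-142387937 (- strand): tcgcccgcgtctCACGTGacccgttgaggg
Ctsd, chr7:142388055-142388077 (- strand): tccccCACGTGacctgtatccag
Ctsl, chr13:64370739-64370768 (- strand): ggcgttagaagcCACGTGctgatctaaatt
Ctss, chr3:95526772-95526801 (+ strand): aaatgaaagttcACTTCCtcattgtggatg
Cd68, chr11:69666142-69666171 (- strand): attttagttaagGGAAGTgaggcttttcat
The Lamp1 promoter held 4 copies of the E-box CACGTG, which is its own reverse complement, the outermost at -61 and -15 from the start. The E-boxes of Ctsd stood at -245 and -98 and that of Ctsl at -236. By the GENCODE M21 bounds given below, the Ctsl match and the nearer Ctsd match lie inside the gene. The E-box was found in 3 of the 8 promoters and in 7.15% of all 32851 promoters searched. Of the 61 genes matched from a wider list of lysosomal genes, 24.6% had it in at least 1 promoter. The latter is a share of genes and not of promoters, so the 2 shares are unlike where a gene has more than 1 promoter. The longer TCACGTGA, which contains the E-box, was in the Ctsd promoter and in 0.974% of all promoters. The ETS-type motif GGAAGT, or ACTTCC on the other strand, was found in the promoters of Ctss and Cd68. It was in 23.8% of all promoters and in at least 1 promoter of 45.9% of the wider-list genes, so that its presence is common. The promoters of Ctsz, Cst3 and Hexa held no match to these letters in this window, and Ctsb was not among the matched promoters. A match describes the sequence and not the binding of a factor.

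In GENCODE M21 on GRCm38 the 4 cysteine cathepsins lie at chr14:63122462-63145923 (Ctsb, + strand), chr13:64359337-64370890 (Ctsl, - strand), chr3:95526786-95556403 (Ctss, + strand) and chr2:174427493-174439039 (Ctsz, - strand). Ctsd lies at chr7:142375911-142388038 (- strand), Cst3 at chr2:148871722-148875692 (- strand) and Hexa at chr9:59539540-59565109 (+ strand). Lamp1 lies at chr8:13159161-13175338 (+ strand) and Cd68 at chr11:69664213-69666153 (- strand). Exons of Ctsl overlap those of Gm49230 on the same strand, which is in neither gene list, and exons of Ctsd overlap those of Gm49369, which is listed for the cortex only and had 0 UMIs there. Ctsb, Ctsl, Ctsz, Hexa and Lamp1 also overlap exons of a gene on the other strand.

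The 3 cortical libraries held 39662203 to 42097490 unique molecular identifiers (UMIs, each standing for 1 captured RNA molecule) and the 3 hippocampal libraries 43963706 to 50024850. After filtering, 13320 of 17937 cortical and 14210 of 15336 hippocampal barcodes were kept. Clusters were named from marker genes, and a class is called "-like" for that reason. Cortical clusters of 373 cells led by Acta2, Tagln and Tpm2 and of 203 cells led by Abcc9, Vtn and Higd1b were not named. They were left out of the non-myeloid cells, and no pericyte-like or vascular smooth muscle-like class was formed in the cortex. Oligodendrocyte precursor-like, epithelial-like and ependymal-like classes were formed in the hippocampus only, so the non-myeloid cells of the 2 regions differ in their classes. Microglia-like cells were the largest class, with 6176 cortical and 5904 hippocampal cells. Every class had its own summed markers at a higher level than any other class did, by the smallest margin (1.15-fold) for hippocampal monocyte-like over macrophage-like cells. The same markers had named the clusters, so this is no independent check of the names. Libraries shared barcodes: 71 kept cells in the cortex and 749 in the hippocampus carried a barcode found in another library, and 558 of the latter were among the 825 epithelial-like and 81 among the 201 monocyte-like cells. Epithelial-like and monocyte-like cells were shallow, with medians of 875 and 774 UMIs per cell. Levels are given in CPM, the UMIs of a gene summed over cells and scaled to a common total of UMIs per class, so that a level in one class is relative to all other RNA of that class.

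Of the 9 genes, 8 stood at least 2-fold higher in microglia-like cells than in the pooled non-myeloid cells in each region, and Lamp1 was the exception. The same was true of 14.3% of the 10022 genes compared in the cortex and 14.2% of the 10483 compared in the hippocampus. Folds were computed with 5 CPM added to both sides. The 9 genes did not form a single block: in the cortex the fold was 59.2 for Ctss, 44.3 for Cd68 and 22.6 for Ctsd, 11.2 for Hexa, 10.5 for Ctsz, 6.94 to 7.07 in single libraries for Ctsb, 5.28 for Cst3, 3.87 for Ctsl and 1.97 for Lamp1. In the hippocampus Ctss was again first (39.3) and Lamp1 again last (1.10), with Cd68 at 29.6, Ctsd at 19.7, Ctsz at 12.3, Hexa at 11.4, Cst3 at 7.72, Ctsb at 5.58 and Ctsl at 5.30. On the log2 scale the SD of these folds over the 3 libraries was at most 0.23. The neighbours Ctsz and Hexa in the cortex, at 3.40 and 3.48 on that scale with SDs of 0.05 and 0.09, differed by less than the spread. The median fold of the 9 genes was 10.5 in the cortex and 11.4 in the hippocampus, beside 0.90 and 0.88 over all genes compared.

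**Figure D1:**
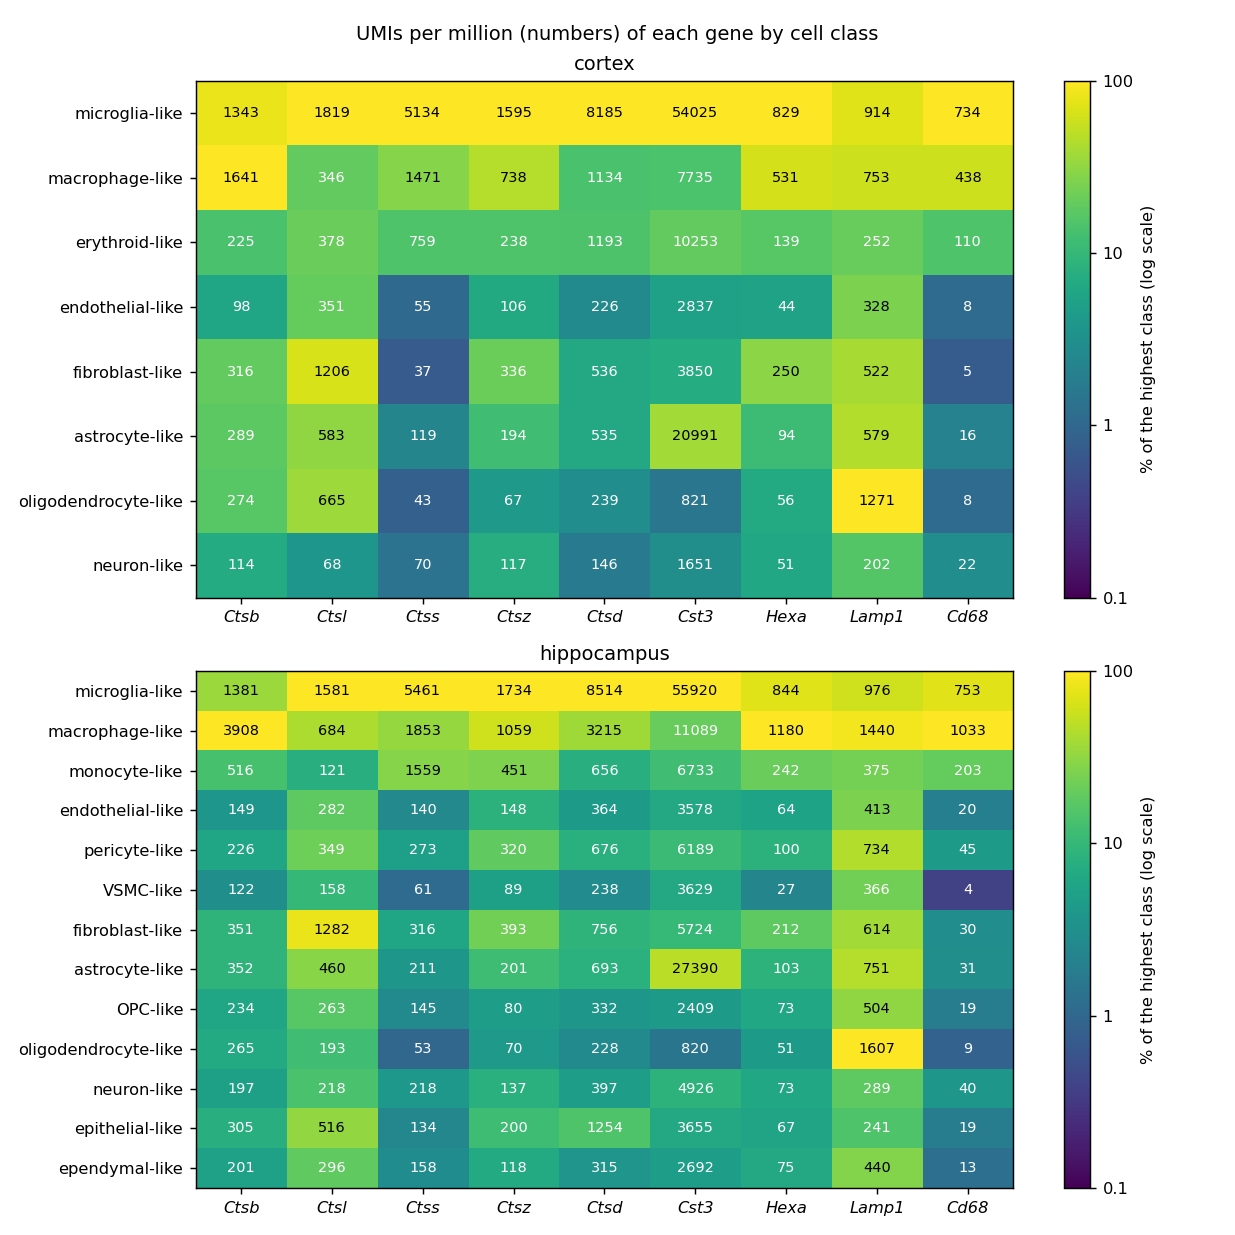
Level of each of the 9 genes (columns; printed as CPM) in every named class of at least 50 cells (rows), with cortex above and hippocampus below. The colour gives the level as a percent of the highest class of that gene, on a log scale. Ctss and Cd68 stand high in the myeloid classes and low in the non-myeloid ones. Cortical erythroid-like cells, with the microglial genes at 15.3% of their microglial level, lie between these for both genes. Lamp1 is highest in oligodendrocyte-like cells, at 1271 and 1607 CPM.

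Cathepsin S, which also takes part in antigen presentation, was the most restricted member. Ctss stood at 5132, 5095 and 5176 CPM in the 3 libraries of cortical microglia-like cells and at 5444, 5427 and 5517 CPM in those of the hippocampus. In the pooled non-myeloid cells it stood at 92.1, 66.1 and 87.0 CPM in the cortex and at 134, 141 and 127 CPM in the hippocampus. The 2 sets of libraries lie far apart in both regions. With each cell thinned to 1000 UMIs, and cells shallower than that left out (71 and 23 microglia-like, 159 and 865 non-myeloid), 98.6% of cortical and 98.8% of hippocampal microglia-like cells had a Ctss UMI, against 3.02% and 5.30% of the non-myeloid cells. Without thinning the shares were 99.3% and 99.6% against 7.88% and 15.5%, at medians of 5473 and 6644 UMIs per microglia-like and 6755 and 7133 UMIs per non-myeloid cell. Macrophage-like and monocyte-like cells came next, at 1418, 1601 and 1342 CPM in cortical macrophage-like cells, 1807, 1895 and 1832 CPM in hippocampal ones, and 1679, 1275 and 1713 CPM in hippocampal monocyte-like cells, whose pooled level was 1559 CPM with and 1638 CPM without the barcodes found in more than 1 library. The monocyte-like class is mixed: Nkg7, Ptprcap and Cd69, found in T and NK cells, were among its 10 leading genes, and at resolution 1.0 no hippocampal cluster was named monocyte-like, while 42 cells were named T/NK-like and an unnamed cluster of 121 cells was led by S100a8 and S100a9.

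Cd68 was likewise low in non-myeloid cells but had another order among myeloid ones. It stood at 725, 729 and 747 CPM in cortical and at 741, 760 and 757 CPM in hippocampal microglia-like cells, and at 11.7, 10.6 and 12.7 CPM and 21.0, 20.7 and 19.9 CPM in the corresponding non-myeloid cells. Hippocampal macrophage-like cells held more Cd68 than microglia-like cells, with 1088, 992 and 1039 CPM, and their libraries do not overlap. Cortical macrophage-like cells held less, with 468, 388 and 478 CPM.

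Free RNA and doublets can carry microglial transcripts into the barcodes of other cells, and genes made by microglia give a measure of this. Of such genes 8 (P2ry12, Cx3cr1, C1qa, C1qb, C1qc, Csf1r, Tmem119 and Fcrls) summed in cortical non-myeloid cells to 1.62% of their microglial level, and in hippocampal ones to 2.50%. The level a lysosomal gene would have at that same ratio was taken as its expected level. Observed Ctss was 0.98 times the expected level in each region, and Cd68 was 0.99 times in the cortex and 1.09 times in the hippocampus. Levels of these 2 genes in the pooled non-myeloid cells were thus at that background, and were not read as expression. A ratio near 1 cannot tell carried RNA from low expression of the same size. Over single non-myeloid classes the ratio of Ctss ran from 0.69 to 1.03 in the cortex and from 0.90 to 1.32 in the hippocampus, and that of Cd68 from 0.71 to 1.83 and from 0.45 to 1.27, the extremes of Cd68 being classes with levels of at most 39.8 CPM. A ratio of at most 1.5, a limit set after the values had been seen, was met by 2 of the 9 genes in each region, and by 4.5% of 3069 cortical and 5.8% of 3170 hippocampal genes with at least 50 CPM in microglia-like cells. Leaving out called doublets lowered Ctss in astrocyte-like cells from 119 to 37.9 CPM in the cortex and from 211 to 36.3 CPM in the hippocampus, in endothelial-like cells from 54.7 to 33.6 CPM and from 140 to 38.3 CPM, and in hippocampal pericyte-like cells from 273 to 63.7 CPM.

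**Figure D2:**
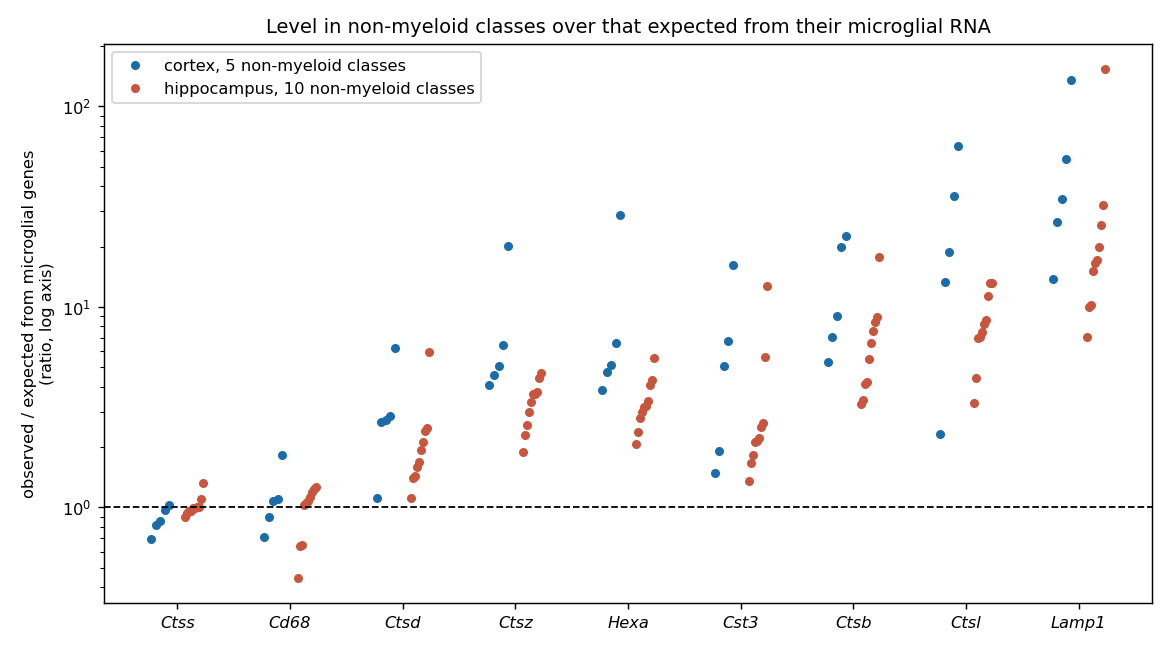
Observed level of each gene in a non-myeloid class divided by the level expected if it followed the 8 microglial genes (ratio, log axis). Points are the 5 cortical and 10 hippocampal classes, in rising order within a gene, and the dashed line at 1 marks equality. Ctss sits near 1, from 0.69 to 1.32, and Lamp1 lies above 7 in every class.

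The other 7 genes exceeded that background in the pooled non-myeloid cells, from 2.01 times for Ctsd to 36.3 times for Lamp1, both in the hippocampus. In the cortex the ratio was 15.8 for Ctsl, 11.7 for Cst3, 8.63 for Ctsb, 5.69 for Ctsz and 5.19 for Hexa, and in the hippocampus 7.46, 5.19, 7.06, 3.15 and 3.29. Cathepsin D, the main aspartic protease of the lysosome, was the closest to it. Ctsd stood at 7717, 8262 and 8570 CPM in cortical and at 8480, 8634 and 8412 CPM in hippocampal microglia-like cells, and at 358 and 427 CPM in the pooled non-myeloid cells. Its observed level was 2.70 times the expected level in the cortex and 2.01 times in the hippocampus, and in neuron-like cells it was only 1.11 and 1.12 times. Hippocampal epithelial-like cells, with Ctsd at 1153, 1323 and 1319 CPM, stood at 5.94 times the expected level, the highest such ratio among the hippocampal classes for this gene. Their pooled Ctsd level of 1254 CPM became 1312 CPM when barcodes found in more than 1 library were left out and 1116 CPM when cells were classed singly from their own markers.

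Cathepsin Z and Hexa had a similar distribution. Ctsz stood at 1459, 1616 and 1708 CPM in cortical and at 1731, 1748 and 1721 CPM in hippocampal microglia-like cells, and Hexa at 764, 836 and 887 CPM and at 839, 855 and 837 CPM. Outside the myeloid classes both were highest in fibroblast-like cells, where Ctsz was at 336 CPM in the cortex and 393 CPM in the hippocampus and Hexa at 250 and 212 CPM. Hippocampal pericyte-like cells followed for Ctsz, with 320 CPM, and oligodendrocyte-like cells were lowest, with 66.9 and 70.2 CPM. The fibroblast-like classes held 77 and 50 cells, and their libraries spread widely, from 251 to 374 CPM in the cortex and from 205 to 460 CPM in the hippocampus for Ctsz, so that the order of fibroblast-like and hippocampal pericyte-like cells is within the spread.

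Cathepsin B, a cysteine protease that cuts proteins and trims peptides, was highest in macrophage-like cells. Ctsb stood at 1305, 1719 and 1845 CPM there in the cortex, which overlaps the 1350, 1327 and 1353 CPM of microglia-like cells. In the hippocampus it stood at 3659, 3987 and 4094 CPM in macrophage-like cells, which is well above the 1376, 1380 and 1388 CPM of microglia-like cells. Non-myeloid classes lay between 98.4 CPM (endothelial-like) and 316 CPM (fibroblast-like) in the cortex and between 122 CPM (vascular smooth muscle-like) and 352 CPM (astrocyte-like) in the hippocampus, and all of these were at least 3.27 times the level expected from the microglial genes. Oligodendrocyte-like cells, at 274 and 265 CPM, were 19.9 and 17.8 times that level.

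Cathepsin L was shared more widely. Ctsl stood at 1766, 1810 and 1881 CPM in cortical and 1572, 1571 and 1601 CPM in hippocampal microglia-like cells. Fibroblast-like cells came next, with 1003, 1255 and 1315 CPM in the cortex and 976, 1213 and 1505 CPM in the hippocampus. The fibroblast-like libraries all lie below the microglia-like ones, in the hippocampus with 1505 CPM against 1571 CPM at the closest. Astrocyte-like cells stood at 546, 580 and 627 CPM in the cortex and 477, 460 and 442 CPM in the hippocampus, and hippocampal epithelial-like cells at 516 CPM. The other myeloid classes held less Ctsl than microglia-like cells. Hippocampal macrophage-like cells stood at 623, 727 and 681 CPM, above the astrocyte-like libraries. Cortical macrophage-like cells stood at 259, 400 and 352 CPM, below the astrocyte-like libraries, but at 772 CPM, above the astrocyte-like level of 562 CPM, when cells were classed singly from their own markers. Hippocampal monocyte-like cells stood at 64.8, 208 and 93.0 CPM, the lowest pooled level of any hippocampal class. Cortical neuron-like cells, at 80.4, 89.9 and 45.5 CPM, were lowest in the cortex.

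Lamp1 was the one gene for which microglia-like cells were not set apart. It stood at 851, 909 and 981 CPM in cortical and at 971, 987 and 969 CPM in hippocampal microglia-like cells. Oligodendrocyte-like cells, the myelin-forming glia, stood higher in every library, at 1406, 1224 and 1162 CPM in the cortex and at 1613, 1616 and 1591 CPM in the hippocampus. Macrophage-like cells stood at 621, 790 and 824 CPM in the cortex, below microglia-like cells, and at 1346, 1545 and 1363 CPM in the hippocampus, above them. Astrocyte-like cells were at 579 and 751 CPM, hippocampal pericyte-like cells at 734 CPM, and neuron-like cells and epithelial-like cells were low, at 202 and 289 CPM and at 241 CPM. The pooled non-myeloid level of Lamp1 was 461 CPM in the cortex and 884 CPM in the hippocampus, where 1075 oligodendrocyte-like cells with a median of 21259 UMIs were part of the pool against 66 in the cortex. The cortical fold of 1.97 lies at the 2-fold limit, with 1.94, 1.91 and 2.05 in the 3 libraries.

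Cst3 was highest in microglia-like cells, with astrocyte-like cells second. It stood at 51932, 54587 and 55517 CPM in cortical and 55101, 56104 and 56566 CPM in hippocampal microglia-like cells. Astrocyte-like cells stood at 20527, 20589 and 21936 CPM in the cortex and at 26667, 27564 and 27964 CPM in the hippocampus, 16.2 and 12.7 times the level expected from the microglial genes. Macrophage-like cells were lower than astrocyte-like cells in both regions, with 7735 and 11089 CPM. Oligodendrocyte-like cells were lowest, with 821 and 820 CPM pooled, although cortical library 3 stood at 2027 CPM against 313 and 367 CPM in the other libraries of that class. The microglial genes stood at 1.02% and 1.08% of their microglial level in these classes. Over the shared identifiers, cortical library 3 was also highest for Ctss (140 CPM against 2.14 and 6.24 CPM) and Cd68 (26.4 CPM against 2.14 and 0 CPM). The part of carried microglial RNA in these Cst3 levels was not tested.

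**Figure D3:**
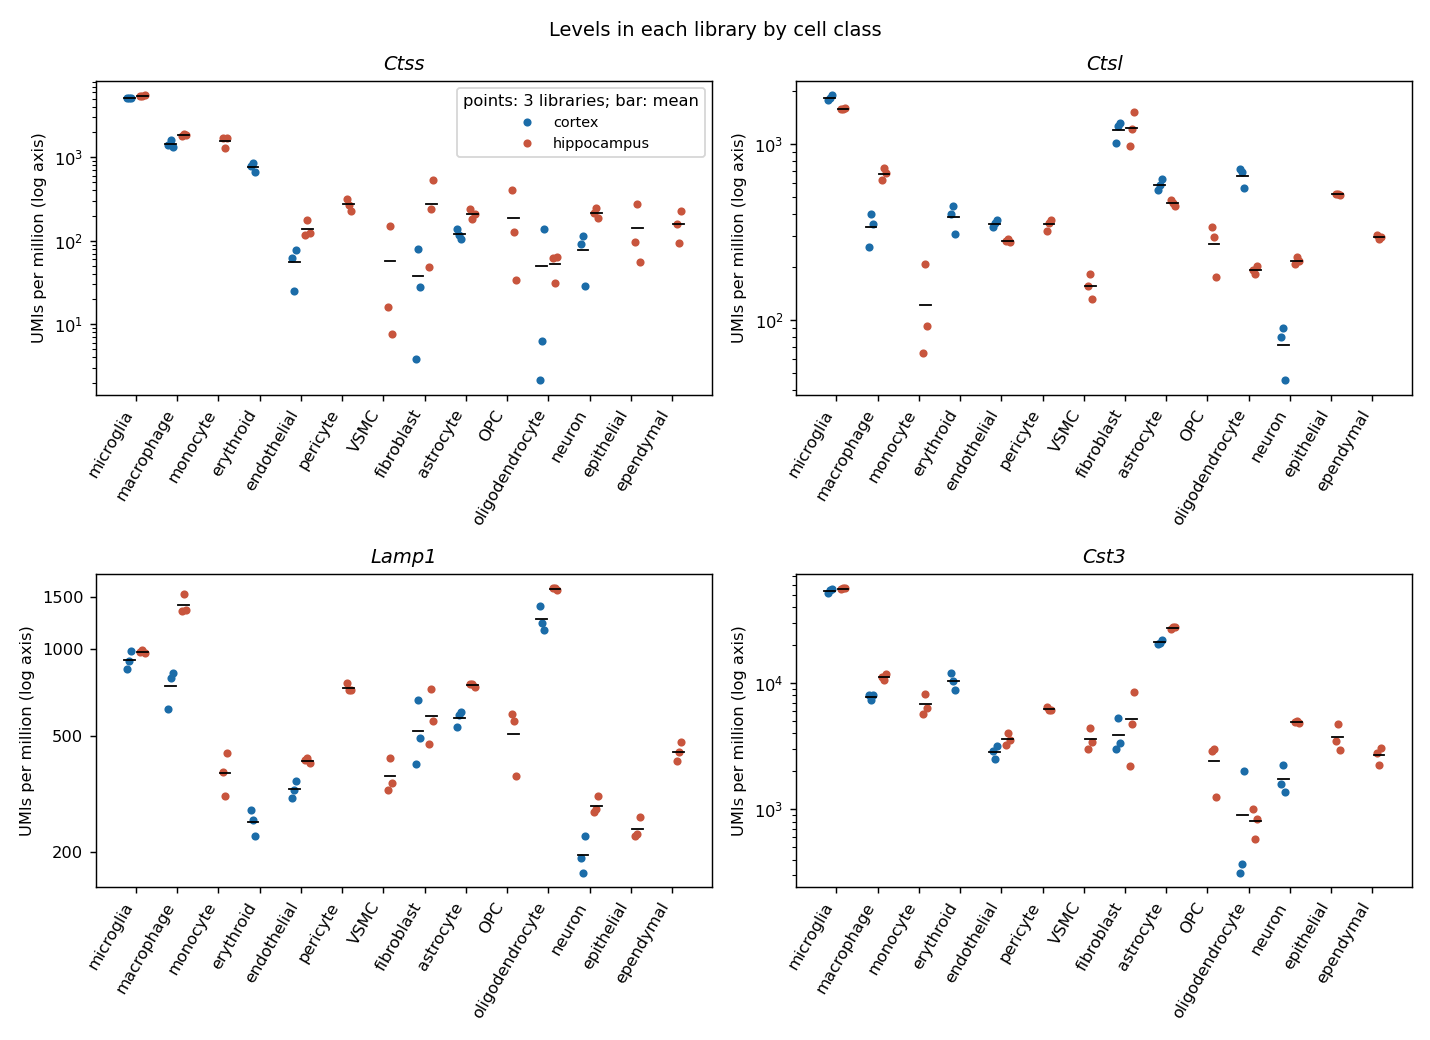
Levels of Ctss, Ctsl, Lamp1 and Cst3 (UMIs scaled to CPM, log axis) in each technical library by class, cortex in blue and hippocampus in red, with a bar at the mean of the 3 libraries (VSMC, vascular smooth muscle cell; OPC, oligodendrocyte precursor cell). Microglia-like libraries lie close together, such as 5095 to 5176 CPM for Ctss in the cortex, and small classes such as fibroblast-like cells spread more.

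Macrophage-like cells, the myeloid class with Mrc1, Pf4 and F13a1 among its markers, held less of Ctss, Cst3, Ctsd, Ctsl and Ctsz than microglia-like cells in every library of each region. The cortical macrophage-like cluster of 167 cells also carried 6 of the 8 monocyte markers, with Plac8 and Ccr2 among its leading genes. The hippocampal cluster of 147 cells held the microglial genes at 64.0% of their microglial level, against 25.9% in the cortex. In a myeloid class these genes were not taken as a measure of carried RNA, and no expected level was computed. At resolution 1.0 the macrophage-like cluster of the cortex held 109 cells. A separate cortical cluster of 58 cells, led by S100a8 and Plac8, was then named monocyte-like. The part of these differences in the comparison of the macrophage-like classes was not tested. In erythroid-like cells of the cortex, the precursors of red cells, which lose their organelles as they mature, the microglial genes stood at 15.3% of their microglial level. There 8 of the 9 genes stood at 0.95 to 1.36 times the level expected from the microglial genes, and Lamp1 at 1.80 times.

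The spread over classes was summarised as tau, which is 0 for an even level and 1 for a gene found in a single class. Its median over the 9 genes was 0.84 in the cortex and 0.88 in the hippocampus, beside 0.66 and 0.73 over all genes. Lamp1 had the lowest value of the 9, 0.601 and 0.630, below the all-gene medians in both regions. Ctss and Ctsd had the highest in the cortex, 0.929 and 0.930, and differed by less than the SD over libraries of 0.0066 for Ctss. In the hippocampus Ctss (0.922), Ctsd (0.911), Ctsb (0.908) and Cd68 (0.904) were close together, and Ctsl was second lowest in both regions, at 0.717 and 0.746.

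Over the 21 class levels of both regions, 8856 genes were ranked by the Pearson correlation of their log2(CPM + 10) with each member, as a description. The points share libraries and depth. Nearest to Ctss were Ly86 (r = 0.993), C1qb (0.989), C1qa, Csf1r and C1qc, and nearest to Cd68 were Fcgr3 (0.993), Aif1, Cd86, Cd14 and Fcgr1. Trem2 (0.947), Pon3, Slc7a8, Ltc4s and Slc37a2 were nearest to Ctsd, and Mertk (0.924), Cables1, Asph, Ptgs1 and Tifa to Cst3. Ctsz and Hexa both had Rab3il1 first, with r of 0.965 and 0.986, and each was among the 5 genes nearest to the other. Ctsb was followed by Gnpda1 (0.943), Ctsa, Gm38843, Hexa and Ccl12, and Ctsl by Aga (0.864), Creb3, Ctsf, Pdk1 and Naglu, of which Ctsa, Ctsf, Aga and Naglu encode lysosomal enzymes. The gene nearest to Lamp1 was Rnf13 (0.889), followed by Acap2, Scarb2, Cln8 and Gna12. Among the members the most alike pairs were Ctss with Cd68 (0.96) and Ctsz with Hexa (0.95), and the least alike were Cst3 with Lamp1 (0.16).

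A wider list of 81 lysosomal genes gave the setting. In the cortex 35 of the 74 with enough counts were at least 2-fold higher in microglia-like than in non-myeloid cells and 3 were lower. In the hippocampus 31 of 75 were higher and 4 lower. Of all genes compared, 14.3% in the cortex and 14.2% in the hippocampus were higher, and 24% and 26.1% were lower. Their median fold was 1.81 and 1.71, well under that of the 9 genes. Hydrolases and their activators were higher for 17 of 28 and 17 of 29 genes, other cathepsins and legumain for 4 of 7 and 5 of 7, and membrane proteins and transporters for 6 of 14 and 5 of 14. Cathepsin inhibitors were higher for 1 of 2 in each region, and genes of sorting and transcription for 3 of 8 and 2 of 8. The V-ATPase, the proton pump that acidifies the lysosome, had the lowest median fold of these groups, 1.18 in the cortex and 1.06 in the hippocampus. Of its genes 4 of 15 were higher in the cortex and 1 of 15 in the hippocampus. Genes of sorting and transcription were close to it in the hippocampus, with a median fold of 1.11.

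Among the largest folds of the wider list were those of Laptm5, a lysosomal membrane protein of blood and immune cells, at 47.3 in the cortex and 34.5 in the hippocampus, of the asparaginyl protease gene Lgmn at 25.6 and 16.6 and of the phospholipase gene Pla2g15 at 15.1 and 16.4. Laptm5 was also at most 1.5 times the background expected from the microglial genes, with 1.17 in the cortex and 1.07 in the hippocampus. The smallest folds were those of Smpd1 (0.47 and 0.62), Laptm4b (0.51 and 0.39), Cstb (0.67 and 0.60) and the V-ATPase subunit Atp6v1a (0.71 and 0.52).

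Between hippocampus and cortex, microglia-like cells held the 9 genes at nearly the same level. Ratios between regions were computed over the 27514 gene identifiers in both lists and called at 1.5-fold. None of the 9 genes was apart, where 4.38% of 8240 genes were, and no gene of the wider list was among 73. The log2 ratios ran from -0.20 for Ctsl to 0.12 for Ctsz, with a median of 0.05 beside 0.07 for all genes. Ctsl stood at 1583 ± 17.0 CPM in the hippocampus and 1824 ± 57.7 CPM in the cortex (SD over 3 technical libraries), and the libraries do not overlap. Nor do those of Ctsb, Ctss and Ctsz, with log2 ratios of 0.04, 0.09 and 0.12. The ratio of Ctsb was under the median of all genes. How often the libraries of all genes failed to overlap is not given here, so these cases were not read as regional differences. Of the wider list Arsb (-0.44), Grn (-0.30) and Atp6v1d (-0.25) were among the lowest in the hippocampus relative to the cortex and Ppt1 (0.38), Ctsc (0.34), Ctsh (0.32) and Slc29a3 (0.31) were highest.

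**Figure D4:**
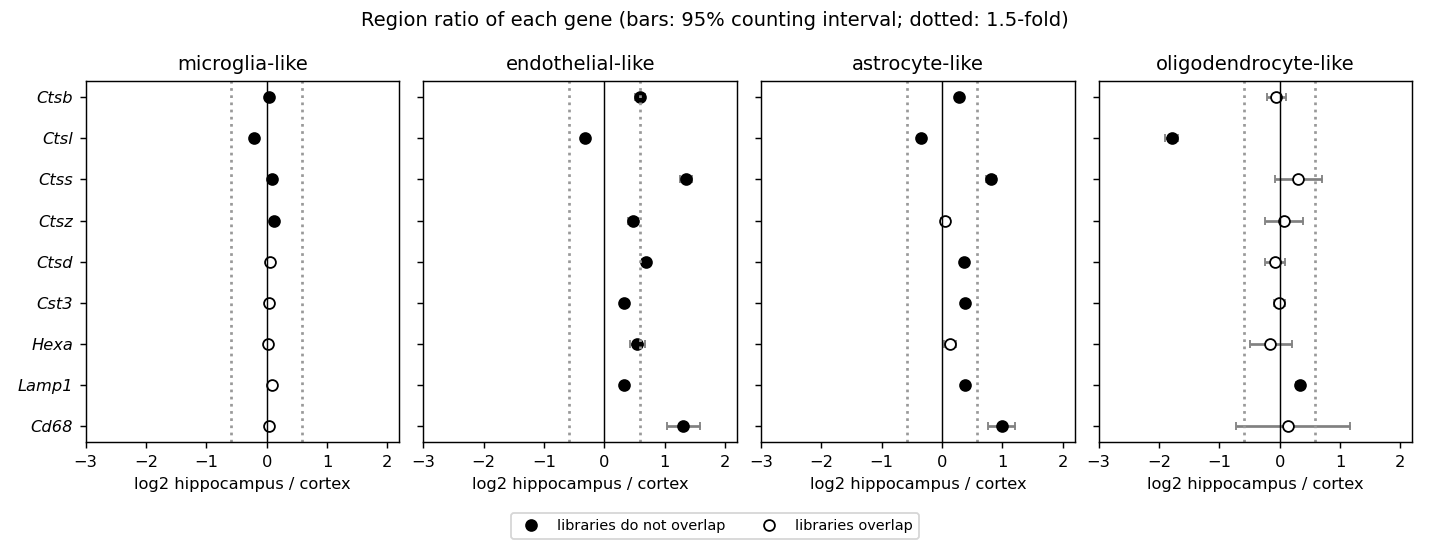
Log2 ratio of hippocampal to cortical level for each gene in 4 classes, with nothing added to the levels, exact 95% intervals for counting error and dotted lines at 1.5-fold either way. Open points mark genes whose libraries overlap between the regions. Microglia-like cells lie near 0 for every gene, and Ctsl in oligodendrocyte-like cells lies far below it.

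In endothelial-like cells 3 of the 9 genes were called higher in the hippocampus, where 6.14% of genes were higher and the median log2 ratio of all genes was 0.12. These were Ctss (1.28), Cd68 (0.94) and Ctsd (0.67), the genes that lay nearest to the microglial background. The hippocampal class included a cluster of 266 shallow cells with 21.4% called doublets, the microglial genes at 25.8% of their microglial level and Ctss at 1446 CPM. The like cluster of the cortex, with 397 cells, 21.7% doublets and Ctss at 1321 CPM, was not named because of its depth. The hippocampal class also held a cluster of 562 cells with Gkn3, Sema3g, Bmx and Vegfc among its leading genes. A cortical cluster of 244 cells with these genes among its leading ones was not named. The cortical class held a cluster of 131 cells led by Adm and Apln. The part of the Gkn3 and Apln clusters in the ratios was not tested. With called doublets left out the log2 ratios were 0.16 for Ctss, 0.03 for Cd68 and 0.14 for Ctsd, and with shallow clusters dropped they were 0.40, 0.22 and 0.25. In astrocyte-like cells Ctss (0.79) and Cd68 (0.81) were called, where 6.36% of genes were higher, and without called doublets their ratios were -0.05 and -0.22. Ctsl was lower in the hippocampus in both classes, by a log2 ratio of -0.31 in endothelial-like and -0.34 in astrocyte-like cells, which is under the limit of 1.5-fold, and it stayed lower under each alternative tried. Of the wider list the highest log2 ratios in endothelial-like cells included those of Laptm5 (1.13), Gm2a (0.47) and Lgmn (0.42), and the lowest were those of Cstb (-0.31), Ctsh (-0.24), Fuca1 (-0.22) and Lipa (-0.22). In astrocyte-like cells Ppt1 (0.61), Laptm5 (0.60) and Scarb2 (0.37) were among the highest and the V-ATPase subunits Atp6v1d (-0.54), Atp6v1g1 (-0.52), Atp6v1e1 (-0.43) and Atp6v0e (-0.40) were lowest.

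Of the classes compared, oligodendrocyte-like cells had the largest regional ratio of Ctsl in size, close to that of neuron-like cells (1.61) in the other direction. The 95% intervals with nothing added, -1.89 to -1.68 and 1.36 to 2.01, overlap in size. Cortical oligodendrocyte-like cells stood at 716, 695 and 564 CPM and hippocampal ones at 192, 183 and 203 CPM. The libraries lie far apart, and the log2 ratio was -1.76, where 17.5% of genes were at least 1.5-fold lower. It stayed past 1.5-fold under each alternative run on these clusters. The other members differed by less than 1.5-fold in this class. Without cortical and hippocampal library 3, however, the ratio was 2.52 for Ctss, 1.24 for Cst3 and 1.29 for Cd68. Without library 1 it was -0.62 for Cst3. Without called doublets it was -1.02 for Cst3 and -0.61 for Cd68, and Ctss was also past 1.5-fold lower in the hippocampus. The cortical class held only 57 UMIs of Ctss and 11 of Cd68. Over the shared identifiers, Ctss stood at 2.14 and 6.24 CPM in its libraries 1 and 2 and at 140 CPM in library 3, where Cst3 and Cd68 were also highest. Cd68 was under 10 CPM in both regions, the limit for tallied genes. The cortical cluster of 66 cells carried 5 markers of oligodendrocyte precursor cells beside 9 of oligodendrocytes, whereas the hippocampal cluster of 1075 cells carried 2 of the former. When cells were classed singly from their own markers, Ctsl stood at 449 CPM in 35 cortical and at 233 CPM in the hippocampal oligodendrocyte-like cells. In the hippocampus an unnamed cluster of 182 cells, led by Tnr, Gpr17, Bmp4, Enpp6 and Neu4 and carrying 5 precursor and 4 committed oligodendrocyte markers, held Ctsl at 1160, 1300 and 1348 CPM. Its level is above that of the precursor-like cells, at 263 CPM, and of the oligodendrocyte-like cells, at 193 CPM, and its microglial genes stood at 1.08% of their microglial level. In the same cluster Lamp1 stood at 1219 CPM and Ctsb at 442 CPM.

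In macrophage-like cells 6 of the 9 genes were called higher in the hippocampus, where 25.7% of genes were higher: Ctsd (log2 ratio 1.50), Ctsb (1.25), Cd68 (1.23), Hexa (1.14), Ctsl (0.97) and Lamp1 (0.93). These calls changed with how the class was drawn, and the cortical cluster also carried monocyte markers, as given above. With cells classed singly from their own markers, 77 of them in the cortex, Cd68 (0.82) alone was apart, Ctsd was at 0.58, Ctsb at 0.45, Hexa at 0.32 and Lamp1 at 0.30, and Ctsl turned to -0.30. At resolution 1.0, Cd68 (0.85), Ctsd (0.84) and Ctsb (0.67) were apart, whereas Lamp1 (0.43), Hexa (0.39) and Ctsl (0.09) were not. In neuron-like cells Ctsl, Ctss, Cst3, Ctsd, Ctsb and Cd68 were called higher in the hippocampus, 6 of the 9 genes where 29.3% of all genes were higher, with Ctsl at 217 ± 9.46 against 72.1 ± 23.4 CPM. The cortical neuron-like cells numbered 120 and the microglial genes stood at 1.61% of their microglial level there, against 4.17% in the hippocampus. The clusters also differed: the cortical class was 1 cluster led by Igfbpl1, Tubb3, Top2a and Mki67, with genes of dividing cells among them, whereas 411 of the 593 hippocampal cells were in a cluster led by Neurod1, Igfbpl1, Sox11 and Calb2. With cells classed singly Cd68 turned to -0.72 and Cst3 was at 0.39, and without library 3 of each region Ctsb was at 0.51 and Cd68 at 0.24. The part of these differences in the ratios was not tested. In fibroblast-like cells Ctss and Cd68 were called higher, where 24% of genes were, and the libraries of the regions overlapped for all 9 genes. The microglial genes stood at 1.05% of their microglial level in cortical and at 6.17% in hippocampal fibroblast-like cells, and their part in these 2 ratios was not tested.

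Within microglia the members did not move together. Microglia-like cells were subclustered without the 9 genes and the wider list, and a small subcluster in each region, of 247 cortical and 305 hippocampal cells, was led by Ccl4, Csf1, Gas2l3, Lpl, Plaur, Cst7 and Cd83. In these Lpl-Csf1 cells Ctsb, highest there of all subclusters, stood at 3194, 2815 and 3041 CPM in the cortex against 1252 CPM in the other microglia-like cells, and at 3533, 3542 and 3516 CPM in the hippocampus against 1232 CPM. The folds were 2.40 and 2.86. Ctsz stood at 3129, 3209 and 3500 CPM against 1503 CPM and at 3672, 3764 and 3740 CPM against 1596 CPM, folds of 2.19 and 2.33. Every library of the subcluster was above the rest of the microglia for both genes.

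Ctsd and Cd68 were higher in the same cells by smaller folds. Ctsd stood at 11559, 12256 and 12550 CPM against 7970 CPM in the cortex and at 14357, 14869 and 14139 CPM against 8100 CPM in the hippocampus, folds of 1.52 and 1.79. Cd68 stood at 1155, 1089 and 1176 CPM against 712 CPM and at 1423, 1351 and 1370 CPM against 709 CPM, folds of 1.60 and 1.94. These 4 genes passed 1.5-fold in each region, where 6.35% of cortical and 6.75% of hippocampal genes did. Lamp1 (1.39 and 1.43), Ctsl (1.29 and 1.27) and Hexa (1.04 and 1.14) were under the limit. Ctss (0.89 and 0.94) and Cst3 (0.87 and 0.90), stood slightly below the other microglia-like cells, and the purinergic receptor gene P2ry12, a marker of resting microglia, was at 0.56 and 0.47.

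Of the wider list 15 of 73 genes were higher in the cortical and 20 of 73 in the hippocampal Lpl-Csf1 cells. The cystatin gene Cst7, which is also among the leading genes of the subcluster, had the largest fold, 6.67 and 6.43, followed by Cd63 (4.59 and 5.49) and Cstb (3.05 and 3.92), and then by Atp6v1a in the cortex (2.17) and Gaa in the hippocampus (2.33). The smallest cortical folds were those of Ctso (0.73), Ctsf (0.80), Slc29a3 (0.81) and Acp2 (0.81), and the smallest hippocampal ones those of Arsb (0.72), Sort1 (0.75), Ctsf (0.76) and Slc29a3 (0.79). Called doublets made up 8.91% of the cortical and 2.30% of the hippocampal subcluster.

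**Figure D5:**
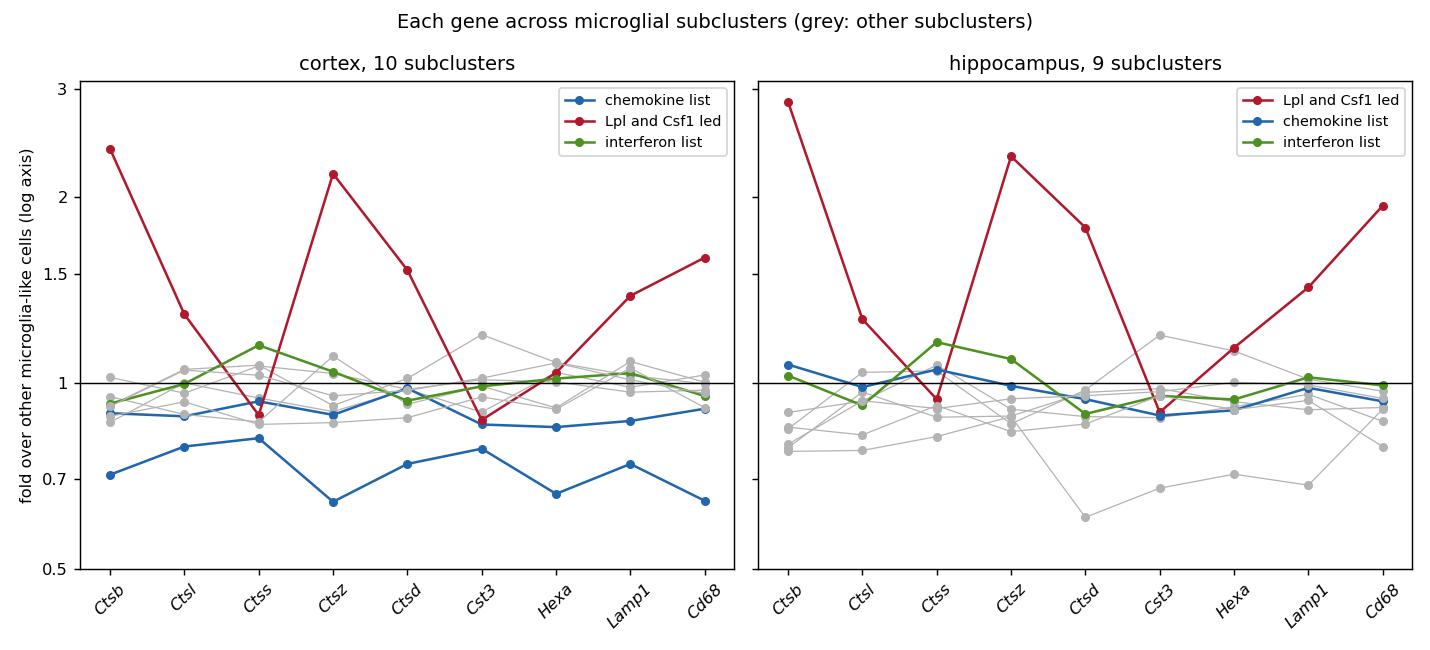
Level of each gene in each microglial subcluster of at least 50 cells divided by its level in all other microglia-like cells (fold, log axis), with named subclusters in colour and the others in grey. The Lpl-Csf1 subclusters stand out for Ctsb and Ctsz, with folds of 2.40 and 2.19 in the cortex and 2.86 and 2.33 in the hippocampus.

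Other subclusters showed other patterns. In interferon-response cells (175 cortical and 137 hippocampal, led by Ifitm3, Ifit3 and Isg15) none of the 9 genes passed 1.5-fold, where 2.89% of cortical and 3.05% of hippocampal genes were higher and 2.39% and 3.11% lower, and Ctss was at 1.15 and 1.16 times the level of other microglia-like cells. In a cortical subcluster of 210 cells, led by Gadd45b, Nfkbiz, Ier3, Socs3 and Tnf and with the chemokine gene Ccl4 at 348 CPM against 301 CPM in other microglia-like cells, the folds of all 9 genes lay between 0.64 and 0.81, and 3 passed 1.5-fold, where 7.38% of genes were lower. P2ry12 was at 0.71 there. These 210 cells had a median of 8134 UMIs, against 5473 in all cortical microglia-like cells. Their lower CPM is relative to their other RNA and is not a lower count per cell. Ccl4 stood at 3.30 times (277 cortical cells) and 4.83 times (237 hippocampal cells) the level of other microglia-like cells in further subclusters. The folds of the 9 genes lay between 0.85 and 0.98 and between 0.89 and 1.07 there. Ccl4 was higher still in the Lpl-Csf1 cells described above, at 13.6 and 9.16 times. Those cells carried 4 Lpl-Csf1 markers and 4 of a chemokine list in the cortex, and 5 and 4 in the hippocampus. In an unnamed hippocampal subcluster of 116 cells Ctsd was at 0.61, the only member past 1.5-fold, where 4.04% of genes were lower. The folds of the 9 genes lay between 0.61 and 0.91 there. These cells had a median of 4177 UMIs, against 6644 in all hippocampal microglia-like cells. The lowest hippocampal levels of Ctsb, Ctsd, Ctsl, Ctss, Cst3, Hexa and Lamp1 were in this subcluster, and those of Ctsz and Cd68 in another. From the lowest to the highest subcluster, Ctsb, Ctsz and Cd68 varied at least 2-fold in the cortex and Ctsb, Ctsd, Ctsz, Cd68 and Lamp1 in the hippocampus. Of all genes, 53.2% varied that much in the cortex, beside 3 of the 9, and 42.5% in the hippocampus, beside 5 of the 9. Over subclusters Ctss ran from 4217 to 5887 CPM in the cortex and from 4479 to 6336 CPM in the hippocampus, where interferon-response cells were highest in both.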

How the data were processed

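The authors deposited raw UMI counts per gene and barcode for 6 libraries; per the labels they used Cell Ranger 5.0.1 with mm10, whereas the file headers name software versions 3.0.1 (cortex) and 3.1.0 (hippocampus). The lowest deposited barcode total was 500 UMIs. From these counts, cells were filtered at 250 to 6000 detected genes and below 25% mitochondrial UMIs, and the 3 libraries of a region were integrated and clustered in Seurat 5.3.0 (R 4.3.3; 2000 variable genes, 30 dimensions, resolution 0.5), leaving the 9 genes and the wider list out of the variable genes. Clusters were named from at least 3 markers, each in at least 20% of cells and 2-fold higher than elsewhere, and stayed unnamed where more leading genes marked another class, or where the median depth was under 0.333 of the library's with none of the class's markers among the 10 leading genes. Shallow clusters with such a marker were named. Markers of 18 types were used, and 140 cortical and 137 hippocampal of 140 symbols matched. Non-myeloid cells exclude microglia-like, macrophage-like, monocyte-like, erythroid-like and unnamed cells. Doublets were scored with Scrublet (scanpy 1.11.5) and kept unless stated, at 750 cortical and 622 hippocampal barcodes. Their number was set by an assumed rate of 0.8% per 1000 barcodes of a library, taking the highest scores. Levels are CPM from summed UMIs; genes with at least 10 CPM in a compared group were tallied. Intervals are exact Poisson at 95% and cover counting error only. Python 3.11.15, numpy 2.4.6, scipy 1.17.1, pandas 2.3.3 and matplotlib 3.10.9 were used, and naming and folds were tested on simulated data. With 1 biological sample per region no p-value was computed.

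All 9 genes are named. Of the wider list, the 4 largest and 4 smallest folds per comparison among genes with at least 50 CPM are named, and for each member the 5 most alike genes. Some genes this rule names are not reported here. The members and lists were chosen with earlier results of these data known. A preparation from older cortex was not analysed here. Promoter sequences are from RefSeq (GRCm38), coordinates from GENCODE M21 (GRCm38). Alternatives included other clustering, cell classes from single-cell markers, other filters and scalings, and leaving out each library.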

Additional observations from a re-analysis of the deposited data

Results flagged for a closer look

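The genes Hexa, Lamp1 and Cd68 lay on opposite sides of macrophage-like cells in the 2 regions, in every library; the difference was not tested. For Hexa the log2 ratio of microglia-like over macrophage-like cells was 0.66 in the cortex (0.56 to 0.72 over libraries) and -0.49 in the hippocampus (-0.55 to -0.41). For Lamp1 it was 0.30 (0.20 to 0.45) and -0.53 (-0.64 to -0.47). For Cd68 it was 0.72 (0.63 to 0.90) and -0.46 (-0.55 to -0.38). The cortical macrophage-like cluster carried 6 of 8 monocyte markers, and at resolution 1.0 a separate cortical cluster of 58 cells was named monocyte-like. In cortical cells classed singly from their own markers, macrophage-like cells held Hexa at 955 and Lamp1 at 1150 CPM, above microglia-like cells at 820 and 909 CPM, and Cd68 at 564 CPM, below microglia-like cells at 726 CPM, so that the opposite sides were then seen for Cd68 alone.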

How the results depend on the processing

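No paired analysis was possible because no test was made and the replicate numbers only name technical libraries. Of 216 alternative values of the microglia-like over non-myeloid fold, 211 kept their side of 2-fold; the 5 others were cortical Lamp1, at log2 1.00 to 1.20 against 0.98. Of 351 alternative ratios between regions in microglia-, endothelial- and astrocyte-like cells, 334 kept their side of 1.5-fold in size and 333 kept their sign. In macrophage-, fibroblast-, oligodendrocyte- and neuron-like cells, run after seeing the data, 419 of 450 kept their side and 420 their sign. A ratio past 1.5-fold in the opposite direction counts as having kept its side, as for Cd68 in neuron-like cells with single-cell markers. Leaving out 1 library gave 8 to 9 cortical and each time 8 hippocampal members higher in microglia-like cells, 33 to 34 and 30 to 33 of the wider list, median tau of 0.837 to 0.844 and 0.880 to 0.884, 3 to 4 and 4 to 5 members varying over subclusters, and 0 members apart between regions in microglia-like, 2 to 4 in endothelial-like, 2 in astrocyte-like, 6 to 7 in macrophage-like, 2 to 4 in fibroblast-like, 1 to 4 in oligodendrocyte-like and 6 in neuron-like cells. The oligodendrocyte-like counts were made over all 9 genes, with Cd68 under 10 CPM in both regions.

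A 4-fold limit left 16 cortical and 18 hippocampal genes of the wider list, for which no share of all genes is given here. Median tau in the cortex was 0.856 with single-cell markers, 0.854 with lysosomal genes kept in the clustering, 0.823 at resolution 1.0, 0.871 with microglial RNA taken off and 0.888 for classes of at least 200 cells; in the hippocampus it was 0.897 without called doublets, 0.915 with single-cell markers, 0.890 as a mean over cells and 0.908 with microglial RNA taken off. A stricter limit left 0 and 0 members varying over subclusters. In endothelial-like cells 0 members were apart without called doublets, 1 at the stricter limit and 0 with shallow clusters dropped, an alternative chosen after seeing the data. In astrocyte-like cells 0 were apart without called doublets, 0 under 10% mitochondrial UMIs, 1 with single-cell markers and 0 at the stricter limit. In macrophage-like cells 1 was apart with single-cell markers and 3 at resolution 1.0, against 6. In oligodendrocyte-like cells 4 were apart without called doublets, against 1, with Cd68 among the 4 although it was under 10 CPM in both regions. With single-cell markers the log2 ratio of Ctsl in macrophage-like cells reversed to -0.30 and that of Cd68 in neuron-like cells to -0.72. Too few cells were left for single-cell markers in fibroblast- and oligodendrocyte-like cells. The log2 ratio of Ctss in astrocyte-like cells reversed to -0.055 and that of Cd68 to -0.22 without called doublets. A called doublet of a microglial and another cell takes its microglial RNA with it when left out, and the cause was not tested.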
